A study of Homo sapiens with 4 samples.

Results

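Long non-coding RNAs that are known mainly from the nucleus, 6 in all, were followed from total RNA into the RNA recovered with SIRT7: MALAT1, NEAT1, KCNQ1OT1, TUG1, MEG3 and MIAT. They were chosen by name, by a rule that used no measured value, but with earlier results of these data known. All 6 were found among the 23615 genes of the table. All libraries came from HEK293T, a human embryonic kidney cell line, stably overexpressing SIRT7 with a Flag tag, at 10~15 passages. The input group holds 2 libraries of total cellular RNA. The RIP group holds 2 libraries of RNA immunoprecipitated from lysate with an anti-Flag M2 gel. Both kinds of RNA were depleted of ribosomal RNA. Every library therefore carries the transgene, and pull-downs from untagged cells were not analysed here, so RNA that sticks to the gel is counted with the RIP RNA. Whether the 2 libraries of a group are separate cultures is not in the labels, so p-values measure only the spread between these libraries, which may be technical.

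Long non-coding RNAs that stay in the nucleus act there as scaffolds or as regulators of the chromatin they are made from, and they are largely kept away from ribosomes. MALAT1 gathers in nuclear speckles, which store splicing factors, and NEAT1 is the architectural RNA around which paraspeckles are built. KCNQ1OT1 silences an imprinted gene cluster in cis, MEG3 is an imprinted transcript, and MIAT forms its own dots in the nucleus. SIRT7 is a sirtuin, a lysine deacylase, found mostly in the nucleolus.

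RefSeq (GRCh38.p14) lists 5 of the 6 as lncRNA and 1, TUG1, as protein coding. Below, lower case marks the 40 bases before a start and capitals mark the first 50 bases of the RNA, on the plus strand, for the most abundant of the RNAs, MALAT1, at both of its listed starts, and for the least abundant tested one, MIAT.
MALAT1 upstream start, chr11:65497698-65497787: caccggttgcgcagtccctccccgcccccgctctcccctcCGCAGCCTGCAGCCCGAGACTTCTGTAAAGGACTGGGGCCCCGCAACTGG
MALAT1 downstream start, chr11:65499005-65499094: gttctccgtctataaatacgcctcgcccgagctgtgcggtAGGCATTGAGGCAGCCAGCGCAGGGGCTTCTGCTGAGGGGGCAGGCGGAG
MIAT start, chr22:26646389-26646478: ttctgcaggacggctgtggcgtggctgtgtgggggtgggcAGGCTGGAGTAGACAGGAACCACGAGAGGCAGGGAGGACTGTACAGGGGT
The MALAT1 starts lie 1307 bases apart, and the deposited table has 1 row for the gene, so its values do not separate RNAs from either start.

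The libraries held 17310753 to 18131602 fragments on genes in input and 25655455 to 25998032 in RIP. The bait mRNA, SIRT7, which checks the labels, rose 37.4-fold in RIP (1164 ± 23.4 to 43560 ± 533 CPM, SD, n = 2 each). CPM here are counts relative to library sizes scaled with TMM, a normalization that takes most genes as unchanged. All 8 genes listed as features of this line were detected in each library, VIM, KRT18 and NEFL well, but the kidney factor PAX2 with only 8 to 14 fragments. Markers of other cell types summed to 0.00139% to 0.00183% of fragments, 5 of 19 were tested, and HBB, CD3E, INS and UMOD were listed at 0. Of the 14555 tested genes, 39.7% were called lower and 38% higher in RIP at an adjusted p under 0.05. The median log2 fold change over all genes was -0.03, or -0.76 when libraries were scaled by their totals alone.

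All 5 tested nuclear RNAs fell in RIP, MALAT1 and KCNQ1OT1 most. The count of 5 lower and 0 higher stands beside the 39.7% called lower over all genes, and 4 of them (MALAT1, KCNQ1OT1, TUG1 and NEAT1) were at least 2-fold lower, against 19.1% of all genes. Scaled by library totals, all 5 were lower too, beside 65.5% lower and 17% higher over all genes, and after the length correction given below 3 were. MEG3 was listed at or near 0 and could not be tested. Together the 6 RNAs took 0.259% and 0.187% of all fragments in input and 0.0202% and 0.0218% in RIP.

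MALAT1, the speckle RNA, had 33810 and 22867 fragments in the input libraries and 3341 and 3762 in the RIP libraries. In CPM these were 1437 and 1034 in input against 167.6 and 186.5 in RIP. The groups lay far apart, with the lower input library 5.54 times the higher RIP library. The means of 1235 ± 285 and 177 ± 13.3 CPM (SD, n = 2 each) gave a log2 fold change of -2.80 (SE 0.121, edgeR adjusted p = 1.051e-11), 6.98-fold lower in RIP. Only 1.64% of tested genes had a lower value.

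NEAT1, the paraspeckle RNA, fell less. It had 1604 and 1016 fragments in input and 393 and 420 in RIP, that is 68.2 and 45.9 CPM against 19.7 and 20.8 CPM. The RIP libraries were close to each other, and both lay below the lower input library, which was 2.21 times the higher RIP value. The log2 fold change was -1.49 (SE 0.142, edgeR adjusted p = 9.609e-08), 2.82-fold lower, and 9.58% of tested genes were lower still. NEAT1 is made in a short and a long form that share their start. The effective length of the row was 0.415 times that of MALAT1, whereas the RefSeq gene (GRCh38.p14) spans 2.59 times the MALAT1 gene. Which form was counted is not given in the sources used here.

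KCNQ1OT1, the imprinted antisense RNA of the KCNQ1 locus, had the lowest value of the 5. Its fragments numbered 7306 and 4952 in input and 672 and 704 in RIP, or 310.4 and 223.8 CPM against 33.7 and 34.9 CPM. No library of one group came near the other, the lower input library standing at 6.42 times the higher RIP library. The log2 fold change was -2.96 (SE 0.123, edgeR adjusted p = 7.56e-12), 7.79-fold lower. KCNQ1, the potassium channel gene on the opposite strand, named here for its position and not by the rule for named genes, had 21 to 35 fragments a library and did not pass the test (log2 fold change 0.41, edgeR adjusted p = 0.2482). The libraries were made with a kit that keeps strand, but the strand setting of the counting is not given in the sources used here, so reads of antisense partners cannot be told apart.

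TUG1, a spliced RNA found in nucleus and cytoplasm, fell with the smallest standard error of the 5. It had 4161 and 3463 fragments in input and 713 and 736 in RIP, or 176.8 and 156.5 CPM against 35.8 and 36.5 CPM. The lower input library was 4.29 times the higher RIP library. The log2 fold change was -2.21 (SE 0.0815, edgeR adjusted p = 2.697e-12), 4.61-fold lower in RIP.

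MIAT was rare and fell least. It had 131 and 110 fragments in input and 60 and 52 in RIP, or 5.57 and 4.97 CPM against 3.01 and 2.58 CPM. The lower input library was only 1.65 times the higher RIP library. The log2 fold change was -0.92 (SE 0.196, edgeR adjusted p = 0.0005189), 1.89-fold lower, and 21.7% of tested genes were lower. MEG3 had 1 fragment in the first input library and 0 in the other 3 libraries. A count of 0 allows up to 3 fragments, which is 0.136 CPM in the second input library and 0.149 to 0.151 CPM in RIP, so no fold is given. This limit, like the depth, covers counting error only, since fragments are not unique molecules. A 0 in this table need not be absence of the RNA: SNHG1, SNHG8 and SNHG12, widely expressed snoRNA host genes, were also listed at 0 in every library, and SNHG5 and SNHG16 at 0 to 2 fragments.

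**Figure D1:**
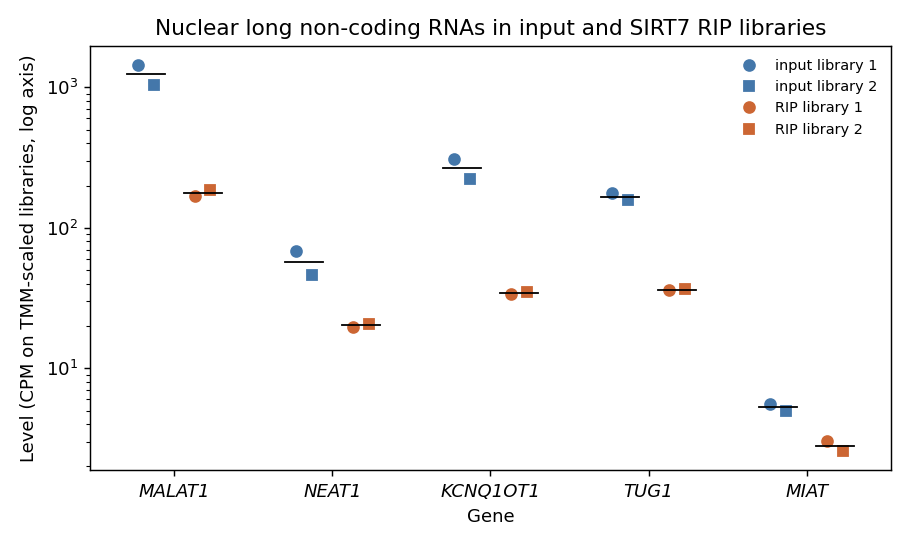
Level of each of the 5 tested RNAs in each library, in CPM on TMM-scaled library sizes (log axis). Points are libraries (2 input, 2 RIP) and bars are group means. Input and RIP levels run from 1437 and 1034 against 167.6 and 186.5 CPM for MALAT1 to 5.57 and 4.97 against 3.01 and 2.58 CPM for MIAT. Input lies above RIP for each RNA, which is not read as a result about these RNAs. How many of the 14555 tested genes also lack overlap was not counted, and 39.7% of them were called lower. CPM are not divided by length, so heights are compared within an RNA.

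The RNAs did not fall in step. Within a library, MALAT1 had 21.1 and 22.5 times the fragments of NEAT1 in input but 8.50 and 8.96 times in RIP. MALAT1 over TUG1 moved from 8.13 and 6.60 to 4.69 and 5.11. MALAT1 over KCNQ1OT1 hardly moved, from 4.63 and 4.62 to 4.97 and 5.34, and the log2 fold changes of these RNAs, -2.80 and -2.96, lay close beside their SEs of 0.121 and 0.123. With 2 libraries a group the smallest p of an exact permutation test is 0.33, so the ratios are values without a test.

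Per length, on the FPKM scale (fragments relative to transcript length and a library factor), the order of the levels changed between the groups. In input MALAT1 stood first (154.6 and 113.3 FPKM), then TUG1 (23.4 and 21.1), NEAT1 (17.7 and 12.1), KCNQ1OT1 (3.11 and 2.28) and MIAT (0.521 and 0.474). In RIP MALAT1 still stood first (18.45 and 20.5 FPKM), but NEAT1 (5.22 and 5.50) now lay just above TUG1 (4.85 and 4.94), then came KCNQ1OT1 (0.345 and 0.356) and MIAT (0.284 and 0.246). The libraries of neighbouring RNAs did not overlap in either group. The place of NEAT1 rests on the short effective length of its row.

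The input libraries also differed from each other. The first input library was above the second for all 5 tested RNAs, 1.39-fold for MALAT1, 1.48-fold for NEAT1 and 1.39-fold for KCNQ1OT1, but only 1.13-fold for TUG1 and 1.12-fold for MIAT. Taken with its sign, as the first minus the second library on the log2 scale, the difference was lower than that of MALAT1 in 95.4% of tested genes, than that of NEAT1 in 96.8% and than that of KCNQ1OT1 in 95.4%. Between the RIP libraries the same ratio was 0.899 for MALAT1, 0.947 for NEAT1, 0.966 for KCNQ1OT1, 0.981 for TUG1 and 1.17 for MIAT. The difference between the input libraries rose with effective length over the 14555 tested genes (Spearman rho = 0.33), and between the RIP libraries it did so hardly at all (rho = -0.07). Both are taken across genes, so they describe these libraries and rest on no independent replicates. Without the first input library the log2 fold changes of MALAT1, NEAT1 and KCNQ1OT1 were -2.55, -1.19 and -2.71, and without the second they were -3.00, -1.73 and -3.16. In these fits 1 input library stands alone and is assumed to vary like the RIP libraries, which were closer to each other, so only the values are read from them. The part of the input libraries' difference in the other results was not tested.

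Length moved with the fold change over the whole table (Spearman rho = -0.60 across genes), and most of these RNAs are long. Effective length, taken from the table as scaled fragments over FPKM, was 3.17 times that of the median tested gene for MALAT1, 2.57 times for TUG1, 3.64 times for MIAT, 1.32 times for NEAT1 and 34.1 times for KCNQ1OT1. The trend over all genes stood at a log2 fold change of -1.15 at the length of MALAT1, -0.97 at that of TUG1 and -1.25 at that of MIAT. At the length of NEAT1 it was -0.29.

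With this trend taken out by offsets, MALAT1, TUG1 and NEAT1 were still lower in RIP, while KCNQ1OT1 and MIAT were not. MALAT1 was at -1.66 on the log2 scale (SE 0.08, edgeR adjusted p = 5.151e-12), TUG1 at -1.24 (SE 0.066, adjusted p = 1.81e-11) and NEAT1 at -1.20 (SE 0.13, adjusted p = 2.09e-07). The count of 3 lower and 0 higher stands beside 35.5% lower and 34.7% higher over all genes. MIAT was at 0.34 (SE 0.199, edgeR adjusted p = 0.1379). KCNQ1OT1 was at 0.02 (SE 0.0646, edgeR adjusted p = 0.8141), but no tested gene was longer and only 5 genes, itself included, were over 10 times the median length, so the trend there is thinly filled. All 5 of these were lower, with log2 fold changes from -2.96, that of KCNQ1OT1 itself, to -2.02. The trend stood at -2.98 at the length of KCNQ1OT1. At the next longest gene, 30.7 times the median length, it stood at -2.89, while that gene was at -2.13. With the trend fitted without these nuclear RNAs, KCNQ1OT1 was at -0.05 (adjusted p = 0.4821).

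The corrected value of NEAT1 depends on the length given to its row. The length behind the deposited FPKM was short, 0.415 times that of MALAT1. The whole gene span would apply only if fragments were counted along all of it, which is not given in the sources used here. Given the length of its whole gene span relative to MALAT1 in place of the table's own, an alternative chosen after seeing the data, NEAT1 went from -1.20 to 0.42 (edgeR adjusted p = 0.00063). For KCNQ1OT1 both measures gave nearly the same length relative to MALAT1, 10.8 times by effective length and 10.4 times by gene span.

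**Figure D2:**
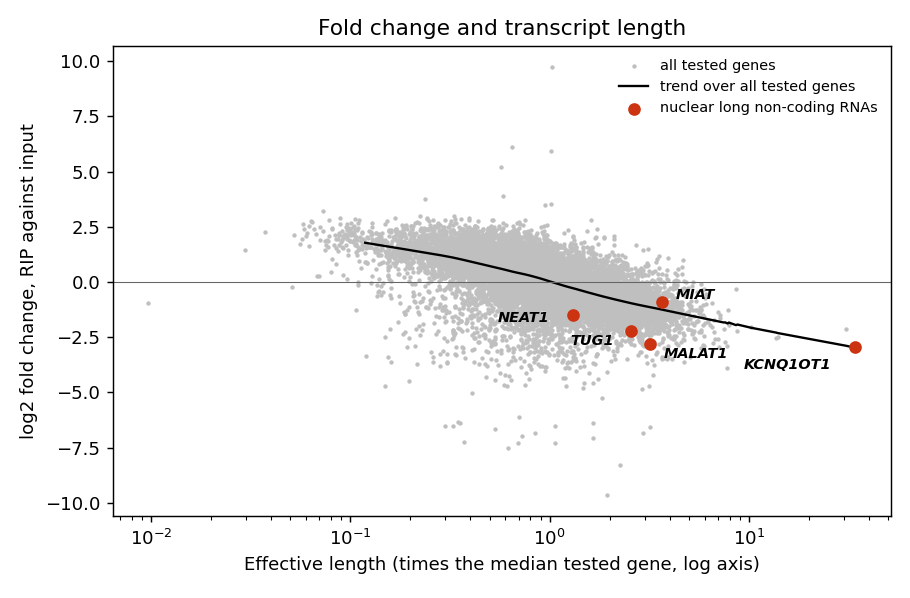
log2 fold change of RIP against input for all 14555 tested genes (grey points) by effective length in units of the median tested gene (log axis), with the length trend over all genes (line) and the 5 tested nuclear RNAs (red). MALAT1, TUG1 and NEAT1 lie below the line, at -2.80, -2.21 and -1.49 where the line stands at -1.15, -0.97 and -0.29. MIAT lies above it and KCNQ1OT1 on it, at the thinly filled long end.

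Other non-coding RNAs listed by name as nuclear went both ways. For this and each further list, the shares over all tested genes are 39.7% lower and 38% higher, 65.5% and 17% scaled by library totals, and 35.5% and 34.7% length-corrected. Of 27 such RNAs 21 were found under their symbols and 11 could be tested, of which 4 were lower, 4 higher and 3 neither (6, 1 and 4 scaled by library totals; 5, 1 and 5 length-corrected). Their median log2 fold change was 0.24, against -2.21 for the 5 and -0.03 for all genes. HOTAIRM1, an antisense RNA of the HOXA cluster, was higher (19.03 ± 1.02 against 38.4 ± 3.19 CPM, log2 fold change 1.01), and after length correction it was at -0.13 and not called. CDKN2B-AS1, an antisense RNA of the INK4 locus, was lower at -1.44 (7.74 ± 0.528 against 2.84 ± 0.307 CPM), and at -1.93 after length correction. CRNDE, the other most abundant of them, was at 0.24 (edgeR adjusted p = 0.02334), but at -0.49 with library totals and at -0.97 after length correction.

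Long non-coding RNAs known mainly from the cytoplasm were mixed too. Of 14 on the list 9 were tested, with 6 higher, 2 lower and a median of 0.71 (4 and 2 with library totals). ZFAS1 rose 3.83-fold (40.4 ± 1.02 to 154.7 ± 5.54 CPM), EPB41L4A-AS1 rose 3.34-fold, and GAS5 rose 2.37-fold (137.7 ± 4.17 to 326.5 ± 1.75 CPM) but was at -0.34 after length correction. GAS5 hosts snoRNAs in its introns, as does ZFAS1. LINC00657, also called NORAD and known as a decoy for PUMILIO proteins, was the most abundant and had a log2 fold change of -0.94. Length-corrected, the list had 2 higher and 5 lower with a median of -0.29: ZFAS1 and EPB41L4A-AS1 stayed above 0 at 0.25 and 0.74, and LINC00657 was at -0.25. OIP5-AS1, named here for its value and not by the rule for named genes, was the lowest of the list. It was at -1.2, and at -1.70 after length correction, where MALAT1 was at -1.66.

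The mRNAs of proteins that work with these RNAs went both ways. Of 15 speckle protein mRNAs 8 were lower and 5 higher (13 and 0 scaled by library totals, 6 and 6 length-corrected), with a median of -0.34, beside 39.7% lower and 38% higher over all genes. SRSF11 fell by 1.61 (235.4 ± 15.1 to 77.4 ± 0.81 CPM) and LUC7L3 by 1.28 on the log2 scale, and both were still lower with the correction, at -1.68 and -1.51. Both code for proteins with arginine and serine rich stretches that bind the splicing machinery. SRSF1, the most abundant, was at -0.02 (edgeR adjusted p = 0.8046; 0.69 after length correction), and SRSF3 was at 0.60, or at -0.14 with library totals.

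Of 16 paraspeckle protein mRNAs 11 were higher and 4 lower, with a median of 0.40 (3 and 9 scaled by library totals, 10 and 4 length-corrected). HNRNPK, needed to make the long form of NEAT1, rose 2.01-fold (768.6 ± 13.7 to 1547 ± 30.2 CPM), and MATR3, a nuclear matrix protein gene, 2.07-fold. SMARCA4 of the SWI/SNF remodeller was lower at -1.35 and the cleavage factor gene CPSF6 at -1.06. After length correction HNRNPK was at 1.01, MATR3 at 1.71, SMARCA4 at -0.65 and CPSF6 at -0.16.

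Of 12 genes for the making of the MALAT1 and NEAT1 3′ ends (RNase P, RNase Z and the triple helix binder METTL16), 9 were higher and 2 lower (4 and 4 scaled by library totals, 7 and 2 length-corrected). The RNase P subunit genes POP7 and RPP25 rose 4.15-fold and 3.69-fold, and the RNase Z gene ELAC2 1.56-fold (121.7 ± 1.297 to 189.7 ± 3.76 CPM; log2 fold change -0.09 with library totals). Of 13 genes for chromatin and splicing partners of the nuclear RNAs, 5 were lower and 4 higher (13 and 0 scaled by library totals, 5 and 4 length-corrected), near the 39.7% and 38% over all genes. QKI, the gene of an RNA-binding splicing regulator, fell by 1.57 and RBBP4, a histone binding subunit of PRC2, by 1.12 on the log2 scale, and they were at -0.26 and -0.06 after length correction. DNMT1, the maintenance DNA methyltransferase gene, was at 0.46 (-0.27 with library totals), and RBBP7 at -0.13 (edgeR adjusted p = 0.08391).

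In each of the 4 genome neighbourhoods of these RNAs more genes were called higher than lower in RIP, but scaled by library totals this held only on 14q32 (2 higher, 1 lower). Over all genes 38% were higher and 39.7% lower, or 17% and 65.5% by totals, and the lists are small, with 3 to 16 tested genes. Of 16 genes around NEAT1 and MALAT1 on 11q13, 11 were higher and 0 lower in RIP, with a median of 0.77 (4 and 6 scaled by library totals, 12 and 0 length-corrected). SSSCA1 and FAM89B rose 3.70-fold and 3.30-fold. The DNA polymerase alpha subunit gene POLA2 was at 0.39 (-0.34 with library totals).

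The 11p15 list of imprinted genes and their neighbours around KCNQ1OT1, which also holds H19 and IGF2 of a separate imprinted domain, had 10 of 14 genes tested, of which 5 were higher and 0 lower (3 and 3 scaled by library totals, 3 and 2 length-corrected). TSSC4 rose 3.74-fold and CD81, a tetraspanin gene, 2.08-fold (109.8 ± 12.4 to 228.2 ± 3.81 CPM). NAP1L4, a nucleosome assembly gene, was at -0.13 (edgeR adjusted p = 0.1126). Around TUG1 on 22q12, 6 of 10 tested genes were higher and 2 lower (1 and 6 scaled by library totals, 6 and 0 length-corrected), among them the selenoprotein gene SELM at 4.45-fold, PATZ1 at 1.55-fold (log2 fold change -0.10 with library totals) and RNF185 at 1.27-fold (-0.39). Beside MEG3 on 14q32 the imprinted genes DLK1, MEG8, MEG9 and DIO3OS were listed at 0 in every library. WDR25 and BEGAIN there rose 2.77-fold and 3.03-fold, and the tRNA synthetase gene WARS was at 0.10 (edgeR adjusted p = 0.1866; -0.63 with library totals).

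**Figure D3:**
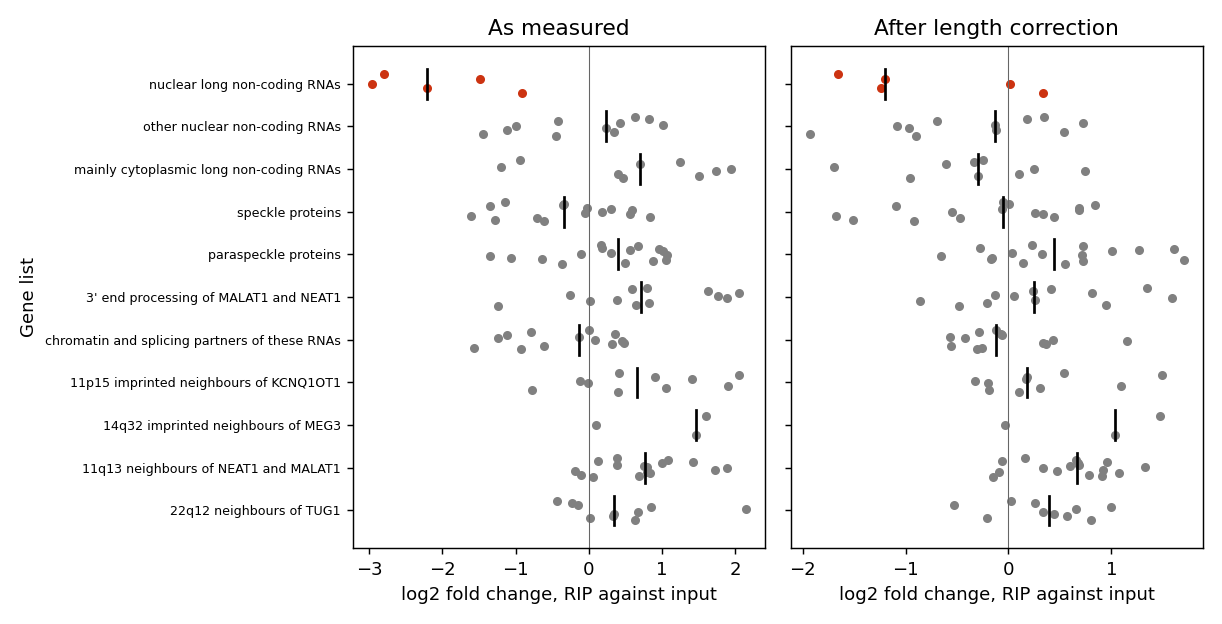
log2 fold change of RIP against input for each tested gene of the lists, as measured (left) and after length correction (right). Each point is a gene and the bar is the list's median. The nuclear RNAs (red) have a median of -2.21 as measured and -1.20 after correction, while the other lists have medians from -0.34 to 1.47 and from -0.29 to 1.03. A list was described by its counts and median only.

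The genes most like each RNA over the 4 libraries were found by the Euclidean distance between log2 CPM centred on their mean. MALAT1 lay nearest to ANKRD19P (distance 0.0521), to MACF1, which codes for a giant linker of actin and microtubules (0.063), and to ACTN2 (0.0989). NEAT1 lay nearest to BSN (0.0209), SLCO6A1 (0.1) and C3orf62 (0.101), and KCNQ1OT1 to KIAA1109 (0.0682), MSH5-SAPCD1 (0.0816) and ONECUT2 (0.114). TUG1 lay close to ZNF704 (0.0412) and SVIL (0.0486), and MIAT nearest to PLK1S1 (0.0447), HEATR5A (0.0489) and MSMP (0.0531). After length correction several of these parted. MACF1 was at -1.01 and ANKRD19P at -3.20 where MALAT1 was at -1.66, and BSN at 0.15 where NEAT1 was at -1.20. KIAA1109, ONECUT2 and MSH5-SAPCD1 were at -1.34, -1.255 and -2.88 where KCNQ1OT1 was at 0.02. PLK1S1 and MSMP were at -1.30 and -2.48 where MIAT was at 0.34. Others stayed closer, SVIL at -1.31 where TUG1 was at -1.24, and HEATR5A at 0.17 beside MIAT.

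**Figure D4:**
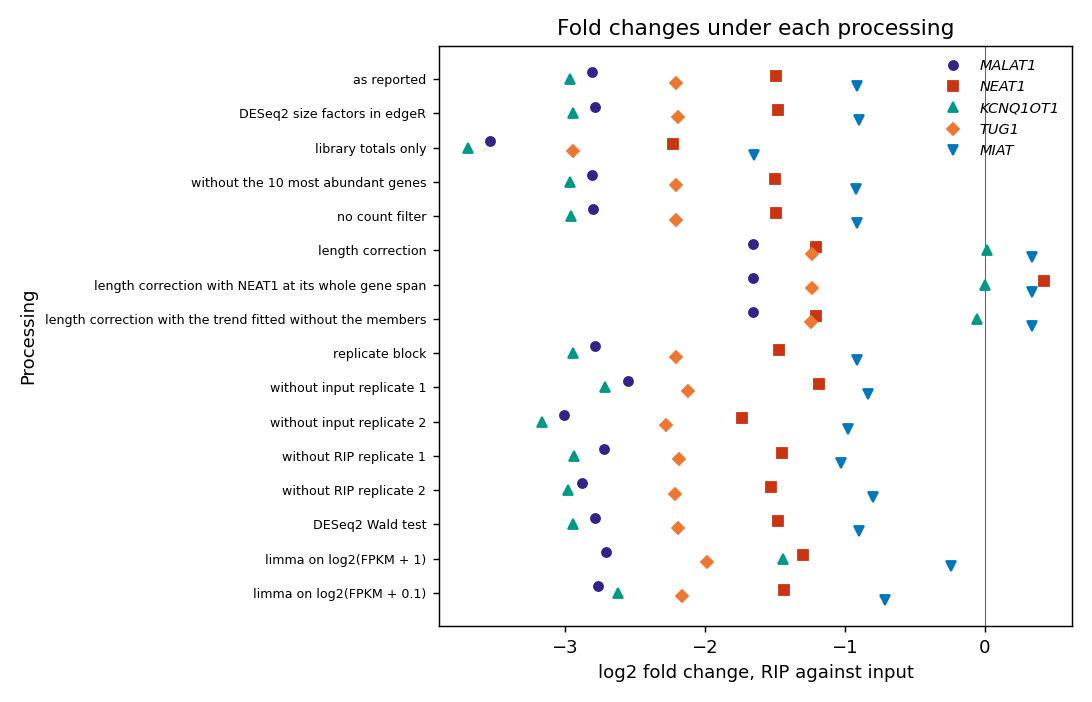
log2 fold change of each of the 5 tested RNAs (symbols) under each processing of the data (rows). All 5 are below 0 in every processing without length correction, MALAT1 between -3.53 and -2.55. With length correction MALAT1 and TUG1 stay at -1.66 and -1.24, MIAT is at 0.34, KCNQ1OT1 is near 0, and NEAT1 is at -1.20 or, with its whole gene span as length, at 0.42.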

How the data were processed

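Reads were processed with TopHat2 2.0.13, Bowtie2 2.2.6, Cuffdiff 2.2.1 and cutadapt 1.5 on hg19, as the submitters' processing notes list them. Annotation, strand setting and multiple mapping are not stated in the sources used here. Per the file headers, expected counts in the deposited table are fragments per gene as estimated by the authors (98.08% whole within 1e-06), and were rounded here. The deposited scaled fragments, a signal divided by 1 factor per library, and the deposited FPKM served for effective length and for levels per length. The status column marked 12 entries of 7 genes as failed, none of them among the nuclear RNAs. Libraries are named by condition and a replicate number from 0, read as replicates 1 and 2.

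Genes passing filterByExpr (minimum count 10, total 15) entered edgeR 4.0.16 (R 4.3.3; TMM, glmQLFit, glmQLFTest, group only, Benjamini-Hochberg at 0.05), run also on simulated data. In these few genes were changed, evenly up and down, with no length trend, so they do not check the fit under changes as wide as those here. The TMM factors came to 1.298 and 1.278 for input, 0.7768 and 0.776 for RIP. SE is the size of the log2 fold change over the square root of F. Length correction used lowess trends (span 0.3) on log2 effective length per library as offsets. The trends were fitted to each gene's log2 CPM minus its mean over the libraries. Alternatives were DESeq2 1.42.0, limma 3.58.1 on FPKM, other scalings and filters, and each library left out. The nuclear RNAs and lists were chosen with earlier results of these data known. Named were the nuclear RNAs, SIRT7, the 2 most abundant and 2 most significant tested genes of each list, and the 3 genes nearest to each nuclear RNA, of which some are not reported here.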

Additional observations from a re-analysis of the deposited data

How the results depend on the processing

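Under the 12 alternatives without length correction, each of the 5 tested RNAs was lower, with log2 fold changes from -3.53 to -2.55 for MALAT1, -2.23 to -1.19 for NEAT1, -3.69 to -1.44 for KCNQ1OT1, -2.94 to -1.98 for TUG1 and -1.65 to -0.24 for MIAT. In those that kept all 4 libraries each of the 5 was also called, where 4897 to 9539 of all genes were called lower. The values nearest 0 of KCNQ1OT1, TUG1 and MIAT came from limma on log2(FPKM + 1), where the pseudocount shrinks low FPKM. Leaving out 1 library gave -3.00 to -2.55, -1.73 to -1.19, -3.16 to -2.71, -2.27 to -2.12 and -1.02 to -0.80 in the same order. With 1 library left out, the lone library of its group is assumed to vary like the other group, so those 4 fits say nothing on how stable a call is. Whether input and RIP libraries of the same number came from the same lysate is not in the labels. The correlation of their deviations across genes (0.0409) cannot settle it. With the number as a block MALAT1 was at -2.78, NEAT1 at -1.47, KCNQ1OT1 at -2.94, TUG1 at -2.20 and MIAT at -0.91, with 5862 genes lower and 5580 higher.

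Library totals moved the whole table from 5783 lower and 5531 higher to 9539 and 2481, and turned CRNDE to -0.49, SRSF3 to -0.14, ELAC2 to -0.091, DNMT1 to -0.27, WARS to -0.63, POLA2 to -0.34, PATZ1 to -0.10, RNF185 to -0.39, VIM to -0.029, COL1A1 to -0.45 and CD68 to -0.092. Length correction left 3 of the nuclear RNAs lower (2 lower and 1 higher with NEAT1 at its whole gene span, where NEAT1 was at 0.42). Over all genes 35.5% were lower and 34.7% higher with either length of NEAT1. The correction put KCNQ1OT1 at 0.018, at 0.003 with that span, and at -0.052 with the trend fitted without the nuclear RNAs, and MIAT at 0.338, 0.337 and 0.337. In all 3 corrections HOTAIRM1 turned to -0.13, CRNDE to -0.97, GAS5 to -0.34, SRSF1 to 0.69, WARS to -0.038, BSN to 0.15 (0.145 with that span) and HEATR5A to 0.17. SRSF1 was also at 0.027 without the second input library and 0.013 without the first RIP library. The cause was not tested. MEG3 entered only the edgeR fit without a count filter, where it was not called, and the DESeq2 Wald test.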
